A study of Mus musculus with 10 samples.

Results

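The response of NOD CD4-positive spleen cells to the phorbol ester PMA, given together with ionomycin, was measured as the difference between 2 stimulated arrays (T1) and 3 unstimulated arrays (T0). All 5 NOD arrays of the 10 arrays of the study, and all 19938 genes that the table measures with a probe set of 1 gene symbol, belong to it. Cells came from the spleens of female NOD mice aged 8 weeks, with the genotype labelled NODk, and were taken with CD4 beads on an autoMACS separator. The T1 cells received PMA at 10 ng/ml and ionomycin at 1 uM for 4 hours, and T0 is labelled basal. The protocol can also be read as culture of the T0 cells for those hours. If T0 is basal as labelled, every change given here combines the drugs with 4 hours of culture, and these cannot be told apart. The comparison strain was B10, genotype B10Br, with the same sex, age, purification and treatment (3 T0 and 2 T1 arrays). The T1 arrays of each strain are labelled replicates 2 and 3, and none of the 10 arrays is a T1 array labelled replicate 1. Arrays are labelled biological replicates without naming the animal behind each, so p-values measure the spread between these samples.

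PMA stands in for diacylglycerol and switches on protein kinase C and RAS guanine nucleotide exchange, while ionomycin carries calcium into the cell, which activates calcineurin and the NFAT factors. Together they enter T cell signalling below the antigen receptor, and drive AP-1, NF-kB and NFAT to the promoters of cytokine genes. NOD mice develop autoimmune diabetes in which CD4 T cells take part.

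Values are log2 intensities on the scale deposited by the authors. A change is the T1 mean minus the T0 mean (n = 2 and n = 3 arrays), given with limma's standard error, and a change of 1 is 2-fold. The standard error rests on a spread per gene taken over all 10 arrays of both strains, not over the NOD arrays alone. A gene is said to rise or fall where limma's p-value, adjusted by Benjamini-Hochberg over all genes, was below 0.05. By this rule 3201 of 19938 genes rose (16.1%) and 3884 fell (19.5%), 7085 in all (35.5%). The median change of all genes was 0.081, and counts of gene lists are to be read against these values. The split depends on the scale. Aligning the arrays at their 75th percentile gave a median change of 0.21, with 5393 rises and 3145 falls, so that 63.2% of calls were rises in place of 45.2%. Aligning their medians gave 0.11, 3963, 3692 and 51.8%.

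Most calls were small, and a minority of genes moved far. The median rise was 0.53 and the median fall -0.72, with a median standard error of 0.12. At least 2-fold rises were made by 670 genes (3.36%) and at least 2-fold falls by 1142 (5.73%). In all of these the 2 T1 arrays lay outside the range of the 3 T0 arrays. Over all genes, both T1 arrays lay above every T0 array in 31.0% and below in 25.1%. At least 8-fold rises were made by 24 genes and falls by 19, and at least 16-fold rises by 7 genes against 1 fall.

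**Figure D1:**
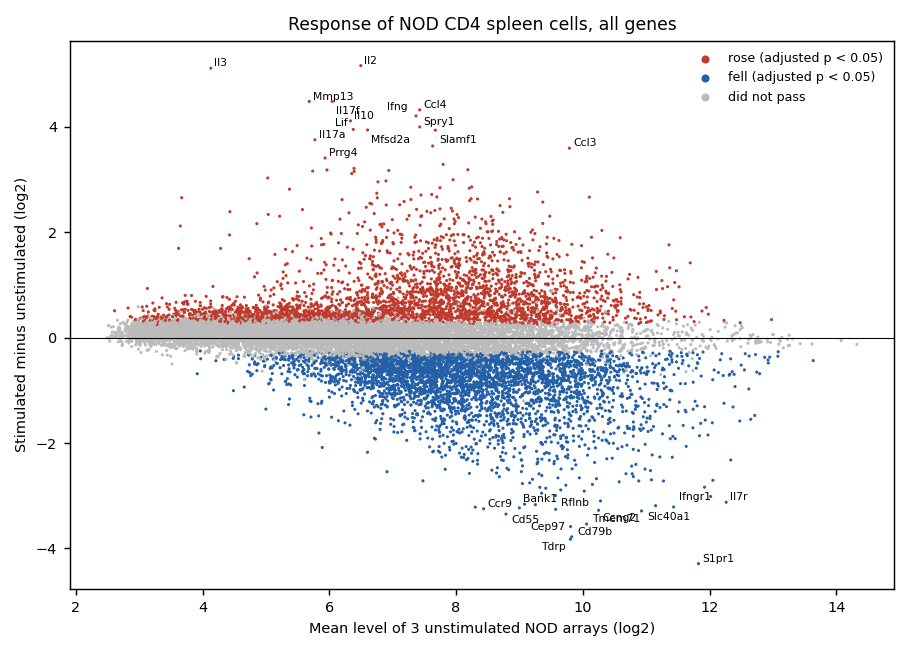
Each point is a gene, with its mean level on the 3 unstimulated NOD arrays (log2) on the horizontal axis and its change on stimulation (log2) on the vertical axis. Red points rose, blue points fell and grey points did not pass. Il2 and Il3 lie at the top, at 5.16 and 5.11, and S1pr1 at the bottom, at -4.29.

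The largest rises and the largest falls began at different levels. Genes that rose at least 8-fold had a median T0 level of 6.39, near the median of all genes (6.30), and 8 of 24 lay below it. Genes that fell at least 8-fold had a median T0 level of 9.82, and 0 of 19 lay below the median gene. At the limit of 4-fold, 19 of 119 rising and 1 of 159 falling genes began below it. Array values have a floor, so a gene that starts low has little room to fall, and a rise from near the floor is understated.

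Cytokine genes led the rises. Il2, the T cell growth factor, read 6.36, 6.70 and 6.42 at T0, and 11.60 and 11.71 at T1, a rise of 5.16 ± 0.13 (35.8-fold, adjusted p = 1.44e-10). Il3, a growth factor for blood cell precursors and mast cells, read 4.11, 4.17 and 4.11 at T0 and 9.39 and 9.09 at T1, a rise of 5.11 ± 0.17 (34.6-fold, adjusted p = 2.06e-09). Both stimulated arrays stood far above all unstimulated ones for either gene, and the gap between groups was many times the spread within them. Il10, which restrains antigen-presenting cells, read 6.18, 6.14 and 6.68 and then 10.17 and 10.72, a rise of 4.11 ± 0.44 (17.3-fold, adjusted p = 9.14e-06). Its standard error was the widest among the 25 named rises. Of 29 measured interleukin and interferon genes 15 rose and 2 fell, with a median of 0.34, and 12 rose at least 2-fold. Il17f, a neutrophil-recruiting cytokine, rose by 4.48 and Ifng, the macrophage-activating interferon, by 4.21. Lif, leukaemia inhibitory factor, rose by 3.95 and Il17a, the partner of Il17f, by 3.75. The 2 that fell were Il1b, a product of myeloid cells (-1.23), and Il16, a chemoattractant for CD4 cells (-0.94). Beside Il1b, 9 of 10 monocyte and macrophage markers fell, as given further on, and their part in its fall was not tested. Il4, the type 2 cytokine, read 8.99, 8.66 and 9.31 at T0 and 9.02 and 9.36 at T1, so that the groups overlapped, and its change was 0.20 ± 0.21 (adjusted p = 0.481).

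Among the TNF superfamily ligands the rises were large. Of 15 measured ligands 7 rose, each at least 2-fold, and 1 fell, with a median of 0.22. Cd40lg, which licenses B cells and dendritic cells, read 8.24, 8.27 and 8.23 at T0 and 11.20 and 11.01 at T1, a rise of 2.86 ± 0.10 (adjusted p = 2.44e-09). Tnfsf8, the CD30 ligand, rose by 2.60, Tnfsf11, the osteoclast factor RANKL, by 2.28, and Tnf itself by 2.04. Ltb, the lymphotoxin chain that anchors Lta in the membrane, went the other way. It read 11.08, 11.15 and 11.02 at T0 and 8.61 and 8.16 at T1, a fall of -2.70 ± 0.13 (adjusted p = 1.01e-08), while its partner Lta, singled out after its values were seen, rose by 1.02. Fasl, the death ligand, had a change of -0.21 and Tnfsf10, another death ligand, of 0.11, and neither passed.

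Of 26 chemokines 11 rose and 1 fell, with a median of 0.36. Ccl4 and Ccl3, inflammatory chemokines, rose by 4.32 and 3.60, Ccl1, the ligand of Ccr8, by 2.82, and Ccl22, a ligand of Ccr4, by 2.30. Ccl6, a myeloid chemokine, fell by 1.00. Ccl5, a chemokine of memory and effector T cells, had a change of 0.23 that did not pass. Among 16 other growth factors and proteases 9 rose and 2 fell, with a median of 0.70, and without NOD_T1 replicate 2 only 1 fell. Mmp13, a collagenase, read 5.60, 5.65 and 5.80 at T0 and 10.09 and 10.24 at T1 (4.48 ± 0.13, adjusted p = 6.63e-10). Penk, the enkephalin precursor, rose by 2.11, Plau, the urokinase plasminogen activator, by 1.84, and Inhba, an activin subunit, by 1.38. Plaur, the urokinase receptor, fell by 0.80.

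While ligands rose, more of the cytokine receptor chains fell than rose. Of 28 measured chains 17 fell and 5 rose, with a median of -0.57, against 19.5% and 16.1% of all genes. Ifngr1, the ligand-binding chain for interferon gamma, read 11.44, 11.43 and 11.42 at T0 and 8.41 and 8.03 at T1, a fall of -3.21 ± 0.12 (9.27-fold, adjusted p = 3.73e-09). Il7r, the survival receptor of resting T cells, read 12.30, 12.33 and 12.16 and then 9.40 and 8.88 (-3.12 ± 0.15, adjusted p = 1.21e-08). No T1 array came within reach of the T0 range for either receptor. Il18r1, the IL-18 receptor chain, fell by 2.64, Ifnar1, a type I interferon receptor chain, by 1.58, and Tgfbr2, a TGF-beta receptor, by 1.56. The rising chains included Il2ra, the high-affinity chain of the IL-2 receptor (3.29), Il15ra, which presents IL-15 (1.97), and Il23r, the IL-23 receptor chain (0.99). Il2rb, the signalling chain that Il2ra joins, had a change of 0.20 that did not pass.

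Receptors for migration fell more often than they rose. Of 20 chemokine and egress receptors 10 fell and 2 rose, with a median of -0.50. S1pr1, which lets T cells leave lymphoid organs, read 11.87, 11.88 and 11.73 at T0 and 7.80 and 7.27 at T1, a fall of -4.29 ± 0.15 (19.5-fold, adjusted p = 2.66e-09), the largest of all named falls. S1pr4, a relative, fell by 2.78, and S1pr2 had a change of -0.12 that did not pass. Ccr9, the gut homing receptor, fell by 3.25. The 2 receptors that rose were Ccr8, a receptor of activated and regulatory T cells (2.40 ± 0.23), and Gpr183, which steers cells to the follicle edge (1.88 ± 0.10). Of 19 integrins and adhesion molecules 11 fell and 3 rose, with a median of -0.90. Itga4, the chain of VLA-4, fell by 2.04 and Itga6, a laminin receptor chain, by 2.29. The rises were Itgav, the alpha V chain (2.01), Cd44, the hyaluronan receptor (1.17), and Icam1, a ligand of LFA-1 (0.71). Vcam1 fell by 2.40. Splenic macrophages also express this gene, and the 10 measured monocyte and macrophage markers moved from mean levels of 8.23 to 8.56 per array at T0 to 6.79 to 7.08 at T1. The part of these markers in the falls was not tested.

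Costimulatory and inhibitory receptors moved both ways, with 11 of 27 rising and 9 falling (median 0.36). Without NOD_T1 replicate 2, 5 fell. Slamf1, a self-binding costimulator, rose by 3.94, Cd200, the ligand of an inhibitory receptor, by 3.11, Btla, an inhibitory receptor, by 2.51, and Cd274, the ligand PD-L1, by 2.49. Cd96, a nectin receptor, fell by 2.25, Entpd1, which breaks down extracellular ATP, by 1.79, and Slamf6, a relative of Slamf1, by 1.47. Pdcd1, the receptor PD-1, had a change of 0.11 and Cd28, the costimulator, of -0.15, and neither passed. Of 19 TNF receptor superfamily genes 8 rose and 2 fell, with a median of 0.19. Fas, the death receptor, rose by 1.63 and Tnfrsf4, the costimulator OX40, by 1.33. The 2 falls were Cd27, a costimulator of resting T cells (-0.47), and Tnfrsf11a, the receptor of RANKL (-0.41), and 0 remained with the 75th percentile scaling and 1 without NOD_T0 replicate 1 or 2 or NOD_T1 replicate 2 or 3.

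**Figure D2:**
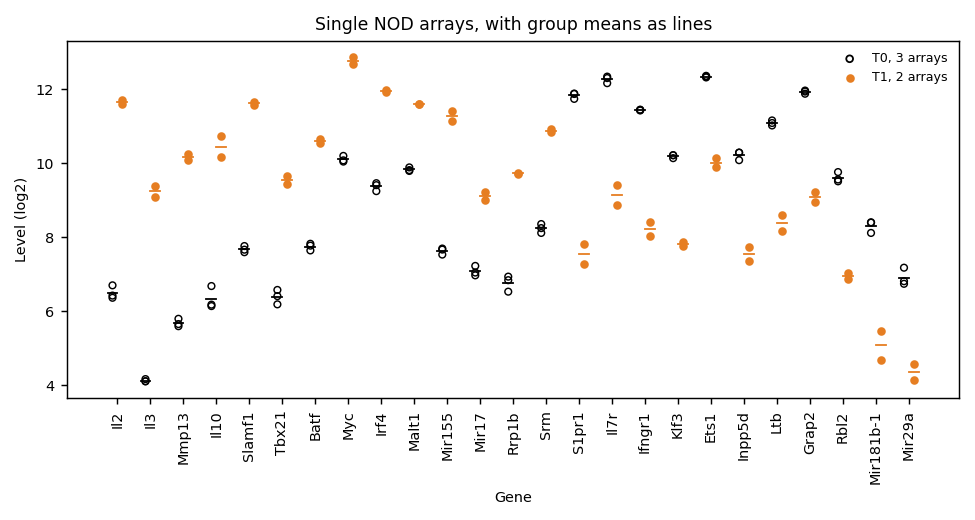
Levels (log2) of 25 genes on each NOD array are shown, with open circles for the 3 T0 arrays, orange circles for the 2 T1 arrays and short lines for the group means. In each gene both T1 arrays lie outside the range of the T0 arrays, as for Il2, from 6.36 to 6.70 and then at 11.60 and 11.71.

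The pathways that both drugs act on were themselves altered at the RNA level. In the calcium branch 5 of 21 genes rose and 10 fell (median -0.20). Orai1, the pore of the store-operated calcium channel, read 8.50, 8.37 and 8.24 at T0 and 10.04 and 9.70 at T1, a rise of 1.5 ± 0.13 (adjusted p = 1.26e-06). Itpr2 and Itpr3, calcium release channels of the endoplasmic reticulum, fell by 1.37 and 1.23. Ppp3ca, the catalytic subunit of calcineurin, fell by 1.18, and Rcan3, a calcineurin regulator, by 1.64. Stim1, the calcium sensor that opens Orai1, had a change of -0.08 that did not pass.

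In the branch of protein kinase C and RAS, 9 of 18 genes fell and 3 rose (median -0.33), with 1 rise without NOD_T1 replicate 2 or NOD_T0 replicate 3. Malt1, a paracaspase on the way to NF-kB, read 9.81, 9.79 and 9.88 at T0 and 11.59 and 11.60 at T1, a rise of 1.77 ± 0.11 (adjusted p = 7.95e-08) and the member that rose under every setting. Rasgrp2, an exchange factor for RAP1, fell by 2.13, Prkd2, a kinase downstream of protein kinase C, by 2.07, and Prkcb, a classical protein kinase C, by 1.76. Prkcq, the isoform of the T cell synapse, read 10.06, 10.17 and 9.95 at T0 and 10.07 and 9.77 at T1. Its groups overlapped and its change of -0.14 did not pass.

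Components that lie upstream of both drugs changed as well. Of 21 genes of proximal T cell receptor signalling 11 fell and 4 rose (median -0.35). Zap70, the kinase recruited to the receptor, rose by 1.62 ± 0.10 (8.94, 9.04 and 8.96, then 10.68 and 10.52). Grap2, the adaptor GADS, fell by 2.84 ± 0.15 (11.96, 11.93 and 11.87, then 9.22 and 8.94), and the receptor chains Cd3g and Cd3e fell by 1.86 and 1.63. The coreceptor Cd4, on whose protein the cells had been selected, fell by 1.72, from between 10.89 and 10.99 to 9.40 and 9.06. Of 16 genes of phosphoinositide 3-kinase signalling 11 fell and 0 rose (median -0.56), with 2 rises under the 75th percentile scaling. Inpp5d, the phosphatase SHIP-1, fell by 2.68 ± 0.13 (10.28, 10.08 and 10.28, then 7.73 and 7.35), Pik3cg, a catalytic subunit of leukocytes, by 2.08, and Pik3ip1, an inhibitor of the kinase, by 1.45.

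Feedback inhibitors of the ERK pathway and related phosphatases rose for the most part. Of 15 phosphatases, Sprouty and SPRED genes 9 rose and 2 fell (median 0.78). Spry1, an inhibitor of RAS signalling, read 7.26, 7.35 and 7.67 at T0 and 11.54 and 11.31 at T1, a rise of 4.0 ± 0.15 (16-fold, adjusted p = 3.73e-09). Dusp4, a nuclear ERK phosphatase, rose by 1.96, Spred1 by 1.05 and Dusp16, a phosphatase of JNK and p38, by 1.02. The falls were Dusp10, a phosphatase of JNK and p38 (-1.92), and Spred2 (-1.46). Among 11 SOCS and PIM genes 7 rose and 1 fell (median 0.82, with 0 falls under the 75th percentile scaling). Cish, a STAT5-induced inhibitor, rose by 2.62 and Socs1, an inhibitor of JAK kinases, by 1.5. Pim1, a survival kinase, rose by 1.27. Of 10 RGS genes 2 rose and 2 fell (median -0.04), with 4 and 1 under the 75th percentile scaling and 1 fall without any one of the 5 NOD arrays. Rgs16 and Rgs1, which shut off chemokine receptor G proteins, rose by 2.30 and 1.03, and Rgs18, a platelet and myeloid member, fell by 1.36. Of 21 ubiquitin ligases and adaptors 5 rose and 9 fell (median 0.04, with 8 rises under the 75th percentile scaling). Traf6, an NF-kB adaptor, rose by 1.71. Nedd4l, a ligase, fell by 1.13.

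Most transcription factors of the AP-1 class rose. Of 16 AP-1, BATF and MAF genes 11 rose and 0 fell (median 0.86). Batf, a partner of IRF4 in T helper cells, read 7.64, 7.82 and 7.77 at T0 and 10.53 and 10.65 at T1, a rise of 2.84 ± 0.18 (adjusted p = 1.08e-07). Atf3, a stress factor, rose by 2.63, Fosb by 1.65 and Fos by 1.59, while Jund, present from the start, had a change of -0.04 that did not pass. Of 12 EGR, NR4A and NAB genes 9 rose and 1 fell (median 0.76), and the fall, of Nab2 by 0.32, was lost with the 75th percentile scaling, array weights, only NOD arrays or a fixed replicate block, and without NOD_T0 replicate 1 or 2 or NOD_T1 replicate 3, while 2 genes fell without NOD_T1 replicate 2. Egr2 rose by 1.97, Nr4a2 by 1.77, Egr1 by 1.63 and Nr4a1 by 1.42.

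Among 13 NF-kB genes 9 rose and 2 fell (median 0.53), and the largest rises were of genes for IkB proteins. Nfkbid, a nuclear IkB protein, read 9.22, 9.36 and 9.28 at T0 and 12.10 and 12.00 at T1 (2.76 ± 0.11, adjusted p = 4.75e-09). Nfkbiz, another nuclear IkB protein, rose by 2.02 and Nfkbia, which holds NF-kB in the cytoplasm, by 1.33. Tnip1, a partner of the inhibitor A20, fell by 1.62. Myc, the driver of cell growth, rose by 2.67 ± 0.10 (10.07, 10.04 and 10.19, then 12.67 and 12.86), and Mxd4, which competes with MYC for MAX, fell by 2.28 ± 0.12 (9.86, 9.74 and 9.68, then 7.34 and 7.62). Of the 12 genes of the MYC and MAX network 1 rose and 2 fell, and Mxd1 (-0.36) was no longer called in 8 of the 10 fits that leave out an array. Max itself had a change of 0.10 that did not pass.

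Lineage factors were split. Of 19 T helper regulators 7 rose and 6 fell (median 0.15). Tbx21, the factor of type 1 cells, read 6.19, 6.58 and 6.41 at T0 and 9.66 and 9.43 at T1, a rise of 3.15 ± 0.19 (adjusted p = 5.57e-08). Ahr, a ligand-activated factor of IL-17 and IL-22 producing cells, rose by 1.86 and Gata3, the type 2 factor, by 1.07. Stat4, which acts downstream of IL-12, fell by 1.32. Foxp3, the regulatory T cell factor, had a change of 0.31 that did not pass. Of 16 circadian clock genes 2 rose and 4 fell (median 0.13), with 4 and 2 under the 75th percentile scaling. Ciart, a clock repressor, rose by 1.66, and Arntl, the clock activator BMAL1, fell by 1.03. The rises were 1 without B10_T0 replicate 1, NOD_T0 replicate 1 or 2 or NOD_T1 replicate 2 or 3, and the falls 2 without NOD_T1 replicate 3.

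Most factors of the resting state fell. Of 17 naive and quiescence factors 13 fell and 0 rose (median -0.54), and 8 fell with the 75th percentile scaling and without NOD_T1 replicate 3. Ets1, which maintains resting T cells, read 12.31, 12.36 and 12.33 at T0 and 10.13 and 9.89 at T1, a fall of -2.32 ± 0.10 (adjusted p = 6.52e-09). Klf3, a transcriptional repressor, read 10.21, 10.21 and 10.13 and then 7.77 and 7.87 (-2.37 ± 0.14, adjusted p = 5.57e-08). Klf7 fell by 2.20 and Lef1, a factor of naive T cells, by 1.71. Foxp1, another quiescence factor, had a change of 0.18 that did not pass. Of 17 target genes of FOXO factors 13 fell and 0 rose (median -1.0), with 1 rise under the 75th percentile scaling and without B10_T0 replicate 3 or NOD_T0 replicate 3. Ccng2, an atypical cyclin of resting cells, fell by 3.28 ± 0.14, Fbxo32, a ubiquitin ligase subunit, by 3.16 ± 0.13, and Sesn1, a sestrin, by 1.73. Bcl2l11, the death factor BIM, had a change of 0.07 that did not pass. S1pr1, Il7r, Ccr7 and Klf2 stand in this list and in others.

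Other large falls came from genes outside these lists. Tdrp read 9.86, 9.92 and 9.63 at T0 and 6.22 and 5.74 at T1 (-3.82 ± 0.17, adjusted p = 6.97e-09). Cep97, which caps centrioles, fell by 3.58 and Tmem71 by 3.54. Pdcd4, an inhibitor of translation initiation, fell by 3.19 ± 0.16 (11.22, 11.18 and 11.05, then 8.31 and 7.61). Cd55, which protects cells from complement, fell by 3.35 and Slc40a1, the iron exporter ferroportin, by 3.29. Rflnb, a filamin regulator, fell by 3.26, Card6 by 3.17, Gramd3 by 3.01 and Traf3ip3, an adaptor of lymphocytes, by 2.99. The T1 arrays of Slc40a1 were 7.24 and 8.03, the widest pair among the named falls. Of the rises outside the lists, Mfsd2a, a lipid transporter, rose by 3.94, Prrg4 by 3.41, Dusp22, a phosphatase, by 3.21, Plscr1, a scramblase, by 3.19 and Bcat1, which breaks down branched-chain amino acids, by 3.18. Gzmb, the cytotoxic protease granzyme B, rose by 3.16 ± 0.19. Sema7a, a semaphorin, rose by 3.0 and Alcam, a ligand of CD6, by 2.97.

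Ribosome biogenesis was the most uniform list. All 46 measured factors rose and 33 rose at least 2-fold (median 1.51, against 0.081 for all genes), and the count was 46 under both other scalings and without each array in turn. Rrp1b, a nucleolar processing factor, read 6.94, 6.53 and 6.84 at T0 and 9.72 and 9.73 at T1 (2.96 ± 0.13, 7.76-fold, adjusted p = 6.52e-09). Grwd1 rose by 2.67, Polr1b, a subunit of RNA polymerase I, by 2.46 and Noc3l by 2.44. The genes of the ribosomal proteins themselves did not share this. Of 38 measured 3 rose and 0 fell (median -0.01), with 7 and 5 rises under the 75th percentile and the median scaling. Rpl12 rose by 1.27 and Rpl30 by 0.86.

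Small nucleolar RNA genes, whose products guide the modification of ribosomal RNA, were taken as a family after their values had been seen. Of 51 measured 41 rose (80.4%) and 0 fell, with a median of 0.95, and the rises numbered 34 to 44 when each array was left out in turn. Snora75 read 9.54, 9.40 and 9.49 at T0 and 11.89 and 11.68 at T1, a rise of 2.30 ± 0.12. Many of these RNAs are cut from introns of other genes. An array of labelled total RNA does not tell the mature RNA from the host transcript.

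Other parts of the protein synthesis machinery rose in part. Of 18 cytoplasmic tRNA synthetases 16 rose and 1 fell (median 1.13), led by Tars (1.73), Yars (1.64) and Iars (1.52), which charge threonine, tyrosine and isoleucine tRNAs. Qars, the glutamine enzyme, fell by 0.63. Of 34 initiation factors 20 rose and 2 fell (median 0.44). Eif2b3, a subunit of the exchange factor that recycles eIF2, read 7.48, 7.31 and 7.55 at T0 and 10.18 and 10.13 at T1, a rise of 2.71 ± 0.11 (adjusted p = 3.92e-09). Of its partner subunits Eif2b5, singled out after its values were seen, rose by 0.68, and Eif2b1, Eif2b2 and Eif2b4 had changes of -0.14, -0.12 and -0.06 that did not pass. Of 25 chaperones 17 rose and 2 fell (median 0.56), and of 31 proteasome subunits 19 rose and 1 fell (median 0.36). Hsph1, Hspd1 and Cct3 rose by 1.25, 1.24 and 1.23, and Psmd11 and Psma5 by 1.05 and 1.04. Dnaja1, a cochaperone, fell by 0.86.

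Nutrient uptake and building blocks followed. Of 27 genes of serine, one-carbon and nucleotide synthesis 19 rose and 1 fell (median 0.97). Shmt1, the cytosolic serine hydroxymethyltransferase, read 6.75, 6.79 and 6.70 at T0 and 9.53 and 9.45 at T1, a rise of 2.74 ± 0.09 (adjusted p = 2.15e-09). Ctps, the CTP synthetase, rose by 2.40, Psat1, of serine synthesis, by 2.01 and Shmt2, the mitochondrial counterpart of Shmt1, by 1.94. Prps2, a synthetase of phosphoribosyl pyrophosphate, fell by 1.03. Of 19 amino acid and glucose transporters 11 rose and 2 fell (median 0.65, with 1 fall without NOD_T1 replicate 2). Slc7a1, the arginine transporter, rose by 2.38 ± 0.10, Slc1a4 by 1.74 and Slc7a5, the large neutral amino acid transporter, by 1.44. Srm, which makes spermidine, rose by 2.64 ± 0.10 (8.35, 8.12 and 8.24, then 10.84 and 10.91) and Oaz2, an inhibitor of polyamine synthesis, fell by 1.21. Of the 6 polyamine genes 5 rose, and 3 without NOD_T1 replicate 3. Among 14 ATF4 targets 5 rose and 2 fell (median 0.20). The falls were 1 with the 75th percentile scaling and without NOD_T1 replicate 2 or 3 or NOD_T0 replicate 3. Asns, asparagine synthetase, rose by 2.23 ± 0.32, with T1 arrays of 10.43 and 11.21.

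Energy metabolism was mixed. Of 21 glycolysis and pentose phosphate genes 4 rose and 8 fell (median -0.10). Hk2, the inducible hexokinase, read 7.27, 7.02 and 7.48 at T0 and 9.41 and 9.75 at T1, a rise of 2.32 ± 0.15 (adjusted p = 1.11e-07), and Pgam1, phosphoglycerate mutase, rose by 1.59. Aldoc, an aldolase, fell by 0.84, and Ldha, lactate dehydrogenase, had a change of 0.25 that did not pass. Of 40 respiratory chain subunits 6 rose and 5 fell (median 0.01), with 12 rises under the 75th percentile scaling. Cycs, cytochrome c, rose by 0.90 and Sdha, a succinate dehydrogenase subunit, fell by 0.78. Of 26 genes of lipid synthesis 11 rose and 6 fell (median 0.11). The rises were led by cholesterol enzymes, Sqle (1.84), Idi1 (1.2), Fdft1 (1.2) and Lss (1.13), and the falls by the fatty acid desaturases Scd2 (-2.33) and Scd1 (-1.55). Of 24 autophagy and lysosome genes 17 fell and 1 rose (median -0.44). Ctsd, cathepsin D, fell by 1.60 and Ulk2, a kinase that starts autophagy, by 1.24. Macrophages are rich in lysosomes, and the part of the falling macrophage markers in this list was not tested. The rise was absent without NOD_T1 replicate 2, and 2 rose under the 75th percentile scaling.

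Of 28 cyclins, CDKs and inhibitors 6 rose and 10 fell (median -0.16). Cdk6, a G1 kinase, read 8.09, 7.80 and 8.07 at T0 and 10.04 and 10.34 at T1, a rise of 2.21 ± 0.14 (adjusted p = 9.24e-08), and Ccnd2 and Cdk4, its cyclin and its relative, rose by 1.08 and 1.05. Rbl2, the pocket protein of resting cells, fell by 2.66 ± 0.11 (9.56, 9.76 and 9.51, then 7.03 and 6.86) and Cdkn1b, the inhibitor p27, by 1.69. Of 28 genes of DNA replication and mitosis 0 rose and 7 fell (median -0.26), with counts of 4 to 11 falls when an array was left out. The count was 4 with the 75th percentile scaling and without NOD_T0 replicate 1 or 3 or NOD_T1 replicate 2, and 11 without NOD_T0 replicate 2. Cenpa, a centromere histone, fell by 0.98. Mki67, a marker of cycling cells, had a change of 0.13 that did not pass.

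Further groups were smaller. Bcl2l1, which encodes Bcl-xL and protects from apoptosis, rose by 2.08 ± 0.13 (8.27, 8.35 and 8.53, then 10.55 and 10.37), Bid, a death factor, rose by 1.05, and the survival factor Bcl2 fell by 0.91. Of 15 BCL2 family genes 3 rose and 3 fell (median 0.03). Of 8 GIMAP GTPases, which support lymphocyte survival, 6 fell and 0 rose (median -0.74), led by Gimap3 (-1.83) and Gimap7 (-1.54). Of 18 mRNA decay and RNA-binding genes 3 rose and 8 fell (median -0.20, with 6 rises under the 75th percentile scaling). Zfp36l1 and Zc3h12c rose by 1.54 each, and Rc3h2, a relative of roquin, fell by 1.17. Of 26 chromatin modifiers 7 rose and 14 fell (median -0.43). Tet2, which oxidises methylcytosine, rose by 1.73 ± 0.14 (7.79, 7.76 and 7.77, then 9.38 and 9.62), and Ezh2, the polycomb methyltransferase, by 1.27, while the acetyltransferases Ep300 and Crebbp fell by 1.40 and 1.13.

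**Figure D3:**
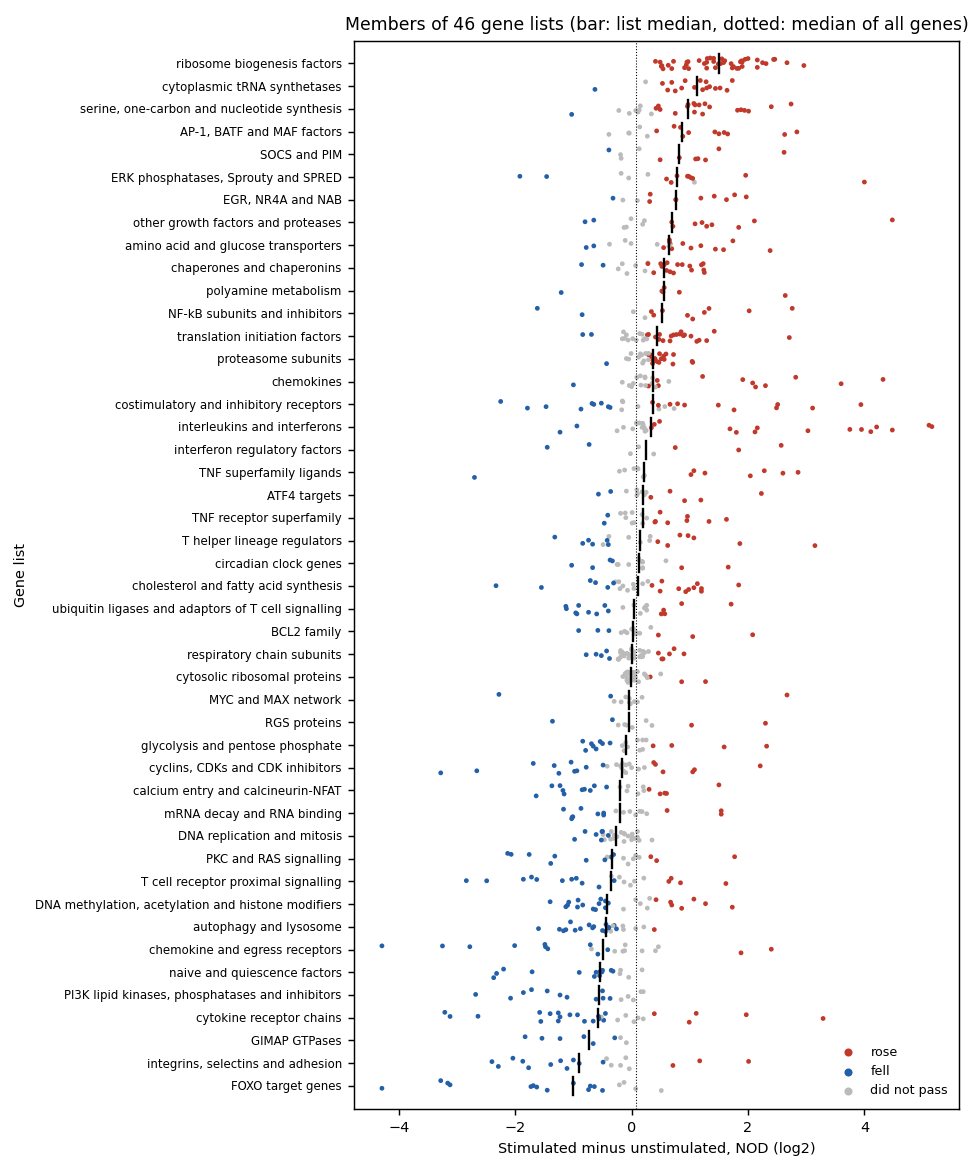
Each point is a measured member of the gene list named at the left, at its change on stimulation in NOD cells (log2), in red where it rose, blue where it fell and grey where it did not pass. Black bars are list medians, from 1.51 for ribosome biogenesis to -1.0 for FOXO target genes, and the dotted line is the median of all genes (0.081).

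Of 12 families of related genes, 6 held both a member that rose and a member that fell. For 2 of these the only fall was a weak call. Id3, among the inhibitors of DNA binding, fell by 0.51 with overlapping groups, and Rgs14, among the RGS genes of this set, by 0.33. Their calls ended under 12 and 9 of the alternatives. Hk2 rose by 2.32 while Hk1, the constitutive hexokinase, had a change of -0.07 that did not pass. Ccnd2 rose by 1.08 and Ccnd3, another D-type cyclin, fell by 1.04. Among the NFAT factors Nfatc1 rose by 0.57 and Nfat5 by 0.60, and Nfatc3 and Nfatc2 fell by 1.16 and 0.64. Irf4, a factor of activated lymphocytes, rose by 2.57 ± 0.11 (9.46, 9.24 and 9.40, then 11.97 and 11.91), and Irf8 rose by 1.84. Irf2, a repressor of interferon-driven genes, fell by 1.45. Of 8 interferon regulatory factors 3 rose and 2 fell (median 0.25). Slc2a1, a glucose transporter, rose by 0.65, whereas Slc2a3, the neuronal-type transporter, had a change of -0.38 that did not pass. Of the 4 measured BTG and TOB genes, antiproliferative factors, all fell, with Tob1 at -0.90 and Btg1 at -0.35. The fall of Btg1 was lost with the 75th percentile scaling, with a fixed replicate block and without NOD_T1 replicate 2, and that of Tob2 (-0.55) without NOD_T1 replicate 3.

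**Figure D4:**
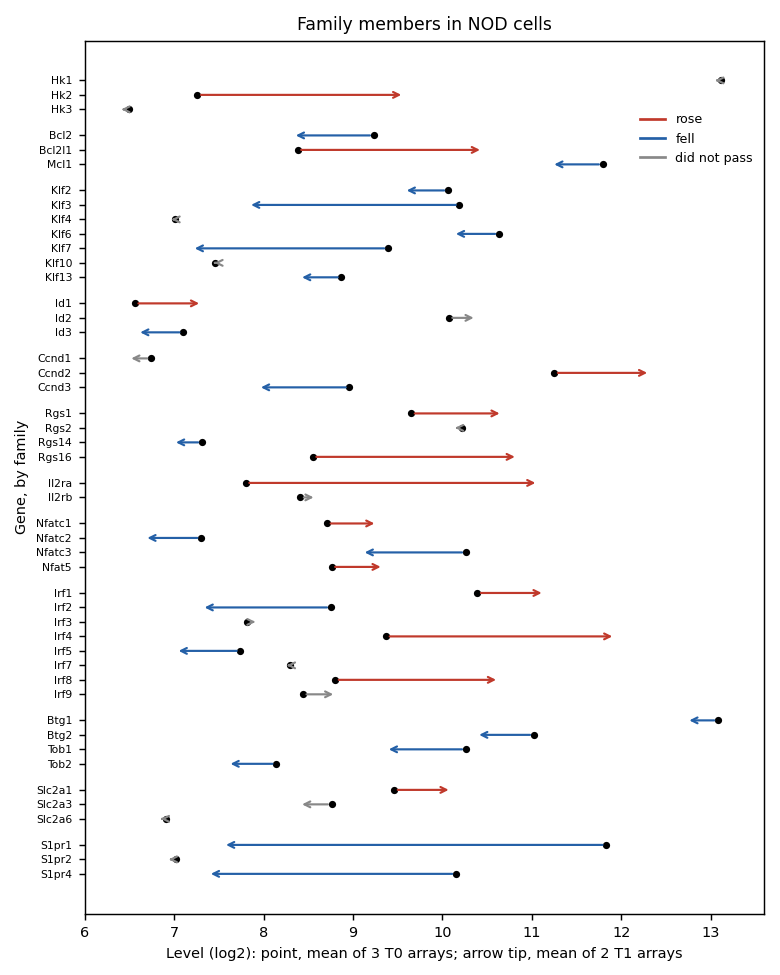
Black points are mean levels (log2) of the 3 T0 arrays and arrow tips the means of the 2 T1 arrays, for members of 12 gene families in NOD cells. Red arrows rose, blue arrows fell and grey arrows did not pass. Within families arrows of both colours appear, as for Bcl2l1 (2.08) and Bcl2 (-0.91).

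MicroRNA genes were also measured. A microRNA pairs with messenger RNAs through its seed, bases 2 to 8 from its 5′ end, and lowers their output. The array's probe sets carry the names of microRNA genes, and values from labelled total RNA do not tell mature from precursor or host transcript. Of 296 microRNA genes 44 rose (14.9%, against 16.1% of all genes) and 21 fell (7.09%, against 19.5%), with a median of 0.11. With the 75th percentile scaling 84 rose and 18 fell. Leaving out an array gave 29 to 49 rises, with 29 without NOD_T0 replicate 1. Those named here were chosen after their values had been seen. Mature sequences are shown for genes that changed at least 2-fold and share a seed with another called gene, so that the seed groups can be seen, and for Mir155, which rose furthest, and Mir18, a member of the Mir17 cluster. Not shown are Mir3068, which rose by 2.04, and Mir144 and Mir687, which fell by 2.08 and 1.80. They are RefSeq sequences of GRCm38.p6, 5′ to 3′, with the seed in capitals.
miR-155-5p, chr16:84714143-84714165, plus strand: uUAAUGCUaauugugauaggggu
miR-17-5p, chr14:115043684-115043706, plus strand: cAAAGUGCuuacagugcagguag
miR-20a-5p, chr14:115044183-115044205, plus strand: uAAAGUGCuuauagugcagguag
miR-18a-5p, chr14:115043867-115043889, plus strand: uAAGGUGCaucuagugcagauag
miR-19a-3p, chr14:115044048-115044070, plus strand: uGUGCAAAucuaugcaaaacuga
miR-19b-3p, chr14:115044358-115044380, plus strand: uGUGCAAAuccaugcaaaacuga
miR-15b-5p, chr3:69009775-69009796, plus strand: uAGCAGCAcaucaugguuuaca
miR-16-5p, chr3:69009918-69009939, plus strand: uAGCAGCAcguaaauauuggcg
miR-181a-5p, chr1:137966468-137966490, plus strand: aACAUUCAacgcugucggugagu
miR-181b-5p, chr1:137966650-137966673, plus strand: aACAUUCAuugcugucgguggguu
miR-29a-3p, chr6:31062673-31062694, minus strand: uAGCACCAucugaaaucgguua

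Mir155, whose product promotes helper T cell responses, read 7.69, 7.53 and 7.67 at T0 and 11.13 and 11.41 at T1, a rise of 3.64 ± 0.17 (12.4-fold, adjusted p = 9.57e-09). Both T1 arrays stood far above the T0 range. Mir17 belongs to a cluster that promotes lymphocyte growth, of which 5 members were neighbours in the table that rose. Mir17 rose by 2.04, Mir18 by 1.96, Mir19a by 1.82, Mir20a by 1.89 and Mir19b-1 by 2.15, and their host gene Mir17hg rose by 1.27. Mir17 read 7.22, 6.97 and 7.05 at T0 and 9.22 and 9.01 at T1. The seed AAAGUGC is shared by miR-17-5p and miR-20a-5p, and GUGCAAA by miR-19a-3p and miR-19b-3p. Mir19b-2, which encodes the same miR-19b-3p elsewhere, rose by 0.55, a call lost without NOD_T0 replicate 1 or NOD_T1 replicate 2. Among genes elsewhere with the first seed, Mir106b fell by 0.49, and Mir93, Mir20b and Mir106a had changes of -0.11, -0.25 and 0.30 that did not pass.

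Mir181b-1, a gene of the family that sets the sensitivity of T cell receptor signalling, read 8.40, 8.39 and 8.11 at T0 and 5.48 and 4.69 at T1, a fall of -3.22 ± 0.25 (9.29-fold, adjusted p = 5.14e-07). Mir181a-1, next to it and with the same seed ACAUUCA, fell by 1.58. The copies of both on another chromosome, Mir181a-2 and Mir181b-2, had changes of -0.23 and 0.03 that did not pass. Mir181c, with the same seed, rose by 0.41, a call lost with a fixed replicate block and without NOD_T0 replicate 1 or NOD_T1 replicate 3. Mir29a, of a family that restrains Tbx21 and Ifng, fell by 2.54 ± 0.18 (7.18, 6.81 and 6.74, then 4.58 and 4.16), and Mir29b-1, with the same seed AGCACCA, by 0.68. Mir15b and Mir16-2, with the seed AGCAGCA and a known role in restraining G1 cyclins, fell by 2.43 and 2.07, and Mir15a fell by 0.57, while Mir16-1, whose mature sequence miR-16-5p is the same, had a change of 0.03 that did not pass. The 2 T1 arrays lay further apart than the T0 arrays for Mir181b-1 and Mir15b (9.15, 9.02 and 8.98, then 7.01 and 6.22).

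Some responding genes lay side by side. Of 668 genes that rose at least 2-fold and have a next tested gene on the chromosome, 60 (8.98%) had a next gene that did so too, against 3.36% of all genes. For falls it was 121 of 1140 (10.6%), against 5.73%. The rising pairs include the Mir17 cluster with its host gene Mir17hg, and Gbp genes, whose probes may be shared. The falling pairs include microRNA genes beside their host gene. Such pairs were not set aside, so these shares do not count separate transcripts only. There were 9 runs of at least 3 rising neighbours and 10 of falling ones. Mir15b and Mir16-2 lie within a falling run with Ift80 (-1.58) and their host gene Smc4 (-1.23). Rbm17, Il2ra and Il15ra formed a rising run (1.23, 3.29 and 1.97), as did Rrp12, Pgam1 and Exosc1 (2.16, 1.59 and 1.16). The neighbours Ms4a4b, Ms4a6c and Ms4a6b fell (-1.70, -3.10 and -2.06), as did C1qb, C1qc and C1qa, the chains of complement C1q made by macrophages (-1.68, -1.87 and -1.99).

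Gbp8, Gbp9, Gbp4 and Gbp11, guanylate binding proteins that interferon gamma induces, rose side by side (2.22, 1.36, 2.64 and 1.84). The family was taken up after its values had been seen. Of 8 measured members 7 rose and 0 fell (median 1.64), the count was 7 without each array in turn, and Gbp2b had a change of 0.05 that did not pass. Gbp5 read 6.84, 6.79 and 7.19 at T0 and 10.13 and 10.09 at T1, a rise of 3.17 ± 0.18 (adjusted p = 4.00e-08). Members of this family are close in sequence, so probes may be shared between them.

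Promoters were read for motifs of the factors that both drugs activate. The window of the RefSeq table runs from 250 bases before to 50 after each start (GRCm38.p6, the reference strain, not NOD), and the first listed start of each of 15614 genes was used, of which 2637 list several. Motifs were searched on both strands: AP-1 as TGANTCA, NFAT as GGAAAA, EGR as GCGNGGGCG, CRE as TGACGTCA, the MYC E-box as CACGTG, ETS as CCGGAAG, FOXO as GTAAACA and the TATA box as TATAAA. No motif contains another, though the NFAT and ETS motifs both hold the letters GGAA. Of 96 promoters of genes that rose at least 4-fold 14.6% held the AP-1 motif, against 2.46% of 122 promoters of genes that fell at least 4-fold and 6.98% of all. The NFAT motif stood in 22.9%, 24.6% and 22.4%, the EGR motif in 8.33%, 7.38% and 8.21%, and CRE in 3.12%, 1.64% and 2.49%. The E-box was found in 10.4%, 8.20% and 8.38%, ETS in 9.38%, 5.74% and 12.5%, FOXO in 2.08%, 3.28% and 3.02%, and TATA in 16.7%, 13.9% and 12.1%. The groups differed in base composition too, with median numbers of CpG of 13.5, 9.5 and 15 per promoter and median GC contents of 55.7%, 54.5% and 57.7%. Shares are descriptions, and a match is not a site.

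The promoters of the 3 largest named rises and of the largest named fall with an entry are shown so that these matches can be seen in place. Only the 250 bases before the start are printed, 5′ to 3′ on the gene's strand, from RefSeq GRCm38.p6, with every motif match in capitals.
Il2, chr3:37125955-37126204, minus strand: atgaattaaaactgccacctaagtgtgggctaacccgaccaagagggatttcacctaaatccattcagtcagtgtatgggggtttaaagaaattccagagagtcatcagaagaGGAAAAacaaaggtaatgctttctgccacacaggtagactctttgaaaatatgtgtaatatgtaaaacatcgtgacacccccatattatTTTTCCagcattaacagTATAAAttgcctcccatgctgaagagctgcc
Il3, chr11:54267280-54267529, minus strand: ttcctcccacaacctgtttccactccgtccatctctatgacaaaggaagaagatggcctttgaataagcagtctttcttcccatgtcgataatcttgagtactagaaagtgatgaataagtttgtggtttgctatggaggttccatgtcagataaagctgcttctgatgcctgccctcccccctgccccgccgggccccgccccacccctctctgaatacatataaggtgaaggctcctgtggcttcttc
Mmp13, chr9:7272264-7272513, plus strand: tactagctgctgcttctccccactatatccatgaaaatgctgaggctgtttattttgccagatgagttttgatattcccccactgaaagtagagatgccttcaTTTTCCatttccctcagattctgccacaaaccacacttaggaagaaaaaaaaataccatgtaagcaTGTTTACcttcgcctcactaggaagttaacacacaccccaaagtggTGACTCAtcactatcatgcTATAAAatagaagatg
Cep97, chr16:55934849-55935098, minus strand: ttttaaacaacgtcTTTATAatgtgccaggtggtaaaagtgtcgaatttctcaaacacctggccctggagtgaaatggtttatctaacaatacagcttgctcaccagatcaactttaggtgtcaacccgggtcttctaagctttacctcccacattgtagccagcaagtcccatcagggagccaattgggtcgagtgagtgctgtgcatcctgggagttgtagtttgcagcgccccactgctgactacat

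Counted from the start, the Il2 promoter has NFAT matches at -137 to -132 and at -48 to -43 and a TATA match at -31 to -26. The Mmp13 promoter has an AP-1 match at -35 to -29, an NFAT match at -147 to -142, a FOXO match at -81 to -75 and a TATA match at -16 to -11. The Il3 window holds none of the 8 motifs in these letters, although Il3 rose by 5.11, and the Cep97 window has a TATA match at -236 to -231.

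The identity of the cells was checked against marker genes. The CD4 T cell markers were high, with a mean of 10.46 to 10.60 per array at T0 and 9.72 to 9.94 at T1, and of 8 markers 4 fell and 1 rose. Markers of other cells were present and moved with stimulation. Of 7 B cell markers 5 fell and 0 rose, with means of 8.71 to 9.02 at T0 and 7.29 to 7.33 at T1. For monocytes and macrophages 9 of 10 markers fell and 0 rose (8.23 to 8.56, then 6.79 to 7.08), and of 9 neutrophil markers 7 fell and 0 rose (6.48 to 6.71, then 5.51 to 5.70). Dendritic cell markers gave 4 falls and 1 rise of 6 (6.57 to 6.67, then 5.74 to 5.81), NK cell markers 2 falls of 6 (5.27 to 5.34, then 5.05 to 5.10), plasma cell markers 1 fall of 4 (8.02 to 8.14, then 7.73 to 7.82) and platelet markers 1 fall of 4 (5.74 to 5.86, then 5.52 to 5.56). The 2 CD8 markers lay between 6.75 and 6.98 on average, with 1 fall. Of 4 erythroid markers 0 passed, at 9.52 to 10.08 and then 9.71 to 10.15, with wide standard errors of 0.31 to 0.69. These errors include the spread of the B10 arrays. Alas2, with an error of 0.53, read 11.31, 11.21 and 11.54 and then 11.64 and 11.68 in NOD. All 4 erythroid markers had higher T0 means in NOD than in B10: Alas2 11.36 and 8.97, Car2 11.74 and 9.13, Klf1 8.19 and 6.75, Epor 7.96 and 6.63. Of the 10 monocyte and macrophage markers, all but Fcgr1 and Fcgr3 also had higher T0 means in NOD. Examples are Mrc1 (8.73 and 7.25), Cd14 (8.09 and 6.82), C1qa (9.34 and 8.29) and Adgre1 (8.29 and 7.35). The gap was smaller for Csf1r (8.53 and 8.04) and Lyz2 (10.17 and 9.99). The part of such cells in the strain differences given below was not tested.

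Some of the largest falls were of B cell genes. Cd79b, a chain of the B cell receptor, read 9.84, 9.67 and 9.97 at T0 and 5.80 and 6.29 at T1 (-3.78 ± 0.15, adjusted p = 3.92e-09), Cd79a, its partner, fell by 2.95, and Bank1, a B cell adaptor, by 3.23. Not all B cell markers moved: Blk, a B cell kinase, read 9.43, 9.21 and 9.52 and then 9.14 and 9.42, with overlapping groups and a change of -0.10 that did not pass. In bulk samples fewer cells of a type and less RNA per cell cannot be told apart. The part of such cells in the falls of shared genes was not tested.

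Where the NOD response differed from that of B10 was tested by the interaction of strain and state in the same limma fit. Of 19938 genes 19 had a higher change in NOD (0.0953%) and 30 a lower change (0.15%), 49 in all (0.246%), and 1841 had an unadjusted p below 0.05. Of the 7085 genes called in NOD, 7044 had no called difference, which does not show that their responses were equal. Without B10_T1 replicate 2 the counts were 7 and 6, the lowest over omissions. They also fell by over 1.5 times, in at least 1 direction, without each of B10_T0 replicates 1, 2 and 3, NOD_T0 replicates 1, 2 and 3 and NOD_T1 replicate 3. With the 75th percentile scaling 16 were higher and 15 lower.

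Nts, the neuropeptide neurotensin, read 3.52, 3.91 and 3.58 at T0 and 6.57 and 6.08 at T1 in NOD, a rise of 2.66, against a change of 0.25 in B10 (difference 2.41 ± 0.22, adjusted p = 0.000649). Dhrs3, a retinaldehyde reductase, rose by 1.80 against a change of 0.11 in B10 (difference 1.69, adjusted p = 0.00721), and Pmp22, a myelin protein, rose by 1.90 against 0.55 (difference 1.36, adjusted p = 0.00755). The T0 means in NOD and B10 were 3.67 and 3.50 for Nts, 7.56 and 6.98 for Dhrs3 and 6.90 and 6.77 for Pmp22, and the T1 means were further apart, at 6.33 and 3.75, 9.36 and 7.09, and 8.80 and 7.32. Arhgap31, a GTPase-activating protein, went in opposite directions, rising by 0.85 from a T0 mean of 6.44 in NOD and falling by 1.55 from 9.32 in B10 (difference 2.41, adjusted p = 0.000649). Trim12a read between 3.95 and 4.31 at T0 and 4.06 and 3.59 at T1 in NOD, whereas in B10 it fell from a mean of 9.75 to 7.75 (difference 1.72, adjusted p = 0.00755). Its difference thus rests on a gene near the bottom of the scale in NOD at both states.

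On the lower side, Ifi202b, an interferon-induced DNA-binding protein, read 4.98, 4.95 and 5.17 at T0 and 7.33 and 7.42 at T1 in NOD, a rise of 2.34, against 4.62 in B10 (difference -2.28 ± 0.15, adjusted p = 3.36e-05). Its T0 mean was higher in NOD (5.04 against 3.90) and its T1 mean lower (7.37 against 8.52). Arg1, arginase, rose by 1.06 against 3.19 (difference -2.12, adjusted p = 0.00103). No alternative that tested them ended these 2 calls, or those of Nts, Arhgap31, Trim12a, Dhrs3, Dipk1a and Pmp22. The fit of only NOD arrays and the test of a minimum change hold no strain difference. The fit of brighter genes leaves out low genes such as Nts. Il13 rose by 1.80 against 3.50 and Csf2, the cytokine GM-CSF, by 3.03 against 4.37, with differences of -1.70 and -1.34 that ended under 10 and 5 of the alternatives. The difference of Il4, -1.88, ended under 8. For Il2 the difference was -0.94 ± 0.18 (adjusted p = 0.0608) and for S1pr1 -0.20 ± 0.21 (adjusted p = 0.817), and neither passed.

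**Figure D5:**
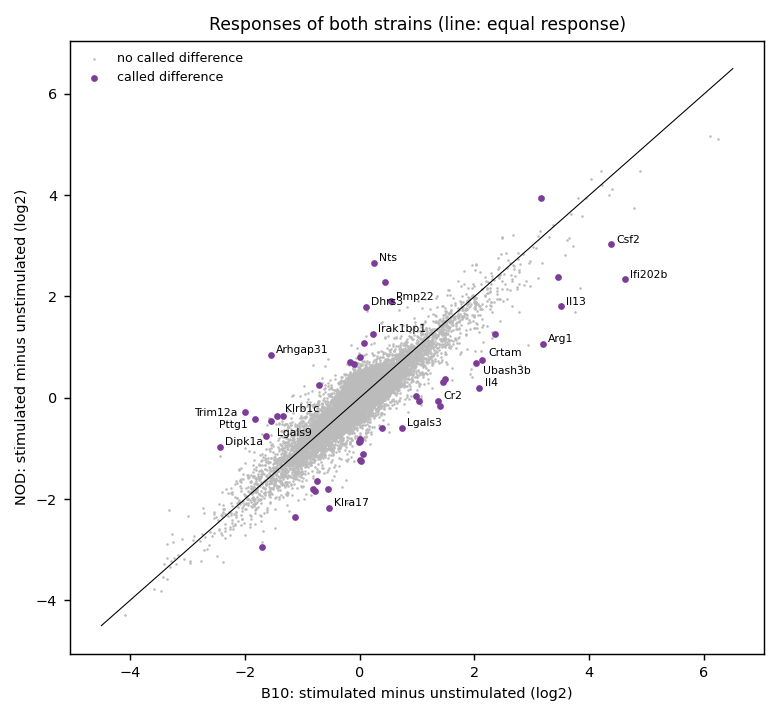
Each point is a gene, with its change on stimulation in B10 (log2) on the horizontal axis and in NOD (log2) on the vertical axis, and the line marks equal responses. The 49 purple points have a called difference, with Nts and Arhgap31 above the line (2.41 each) and Ifi202b and Arg1 below it (-2.28 and -2.12).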

How the data were processed

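RNA of 10 samples was measured on Affymetrix mouse arrays, 1 array each. The authors deposited log2 values, which per the submitters' processing notes come from RMA as run by Affymetrix Power Tools. RMA corrects background, brings arrays to a common distribution and summarises probes. Versions and options are not given in the sources used here, and the base of the logarithm follows from the values' range only. Array medians lay between 6.18 and 6.23, Pearson's r was 0.985 to 0.993 within NOD groups, and the number of arrays limits precision.

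Of 35486 probe sets 21789 had 1 gene symbol in the platform table, 1621 several and 12076 none listed. Each of 19938 genes was represented by its probe set of highest mean, and 999 genes had a choice of several. For 91 probe sets the gene was not in RefSeq GRCm38.p6. All 10 arrays entered 1 fit, with a mean for each of 4 groups, in limma 3.58.1 in R 4.3.3 (eBayes, two-sided tests, 6 residual and 6.30 prior degrees of freedom), with Benjamini-Hochberg adjustment over all genes and a threshold of 0.05. The procedure was also run on simulated data with independent noise between arrays. That run cannot show how shared replicates or the choice of scale affect the calls. Figures were drawn with matplotlib 3.10.9.

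Lists were described by counts and medians, without a set test. The genes, lists, motifs and tests were chosen with earlier results of these data known. The text names the 25 largest rises and the 20 largest falls that passed without overlap of arrays, the 10 largest response differences in each direction, up to 5 members per direction of each list, markers and members of neighbouring runs. Predicted genes, small RNA genes, olfactory and vomeronasal receptors and receptor segments were left out of the first 3. Alternatives were other scalings, the mean of probe sets, only brighter genes, trend and robust eBayes, array weights, only NOD arrays, a minimum change of 2-fold, replicate blocks and omission of each array.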

Additional observations from a re-analysis of the deposited data

Results flagged for a closer look

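Genes appear here because the test of the difference between the NOD and the B10 response passed. Values are the NOD change minus the B10 change on the log2 scale, by limma with adjustment over all genes. Positive values were 2.41 for Nts, 2.41 for Arhgap31, 1.72 for Trim12a, 1.69 for Dhrs3, 1.46 for Dipk1a, 1.40 for Pttg1, 1.36 for Pmp22, 1.08 for Klrb1c, 1.07 for Lgals9 and 1.03 for Irak1bp1. Dipk1a fell in both strains, by 0.98 in NOD and 2.43 in B10. Negative values were -2.28 for Ifi202b, -2.12 for Arg1, -1.88 for Il4, -1.70 for Il13, -1.64 for Klra17, -1.44 for Cr2, -1.37 for Crtam, -1.34 for Csf2, -1.33 for Lgals3 and -1.33 for Ubash3b. Lgals3, galectin 3, fell by 0.60 in NOD and had a change of 0.73 in B10. Cr2, a B cell complement receptor, had a change of -0.07 in NOD and 1.37 in B10. Alternatives that ended a call numbered 5 for Pttg1, 2 for Klrb1c, 7 for Lgals9, 11 for Irak1bp1, 8 for Il4, 10 for Il13, 3 for Klra17, 11 for Cr2, 4 for Crtam, 5 for Csf2, 1 for Lgals3 and 10 for Ubash3b.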

How the results depend on the processing

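None of the 45 calls of the named rises and falls ended under an alternative that tested the gene. The NOD counts moved by over 1.5 times with the 75th percentile scaling (5393 rises) and with a minimum change of 2-fold tested by treat (317 rose, 468 fell). Counts of response differences, 19 higher and 30 lower in NOD, became 15 lower with the 75th percentile scaling, 34 and 68 with trend and robust settings, 12 and 19 with array weights. Omission of each array gave 2500 to 3248 rises and 3401 to 3892 falls, 628 to 736 and 1078 to 1247 of at least 2-fold, and 7 to 26 higher and 6 to 43 lower differences, and a lone T1 array was then assumed to vary like the other groups.

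Replicate numbers repeat across states. Deviations of arrays with 1 number from their group means correlated at -0.014 and 0.22 in NOD and 0.41 and 0.40 in B10. With 2 T1 arrays per strain the T1 deviations mirror each other, so these values cannot settle whether samples were paired. The main fit did not use pairing. With the number as a fixed replicate block 2648 genes rose and 3573 fell, and 37 and 53 differences were called. With a random block these were 3403, 3981, 24 and 45.

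Detection calls were not used here, so changes near background are understated by an unknown amount.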
